A study of Mus musculus with 4 samples.

Results

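The genes described here encode enzymes that cut the extracellular matrix and the inhibitors that hold them back. They are 5 matrix metalloproteinases (Mmp2, Mmp3, Mmp9, Mmp13 and Mmp14), 3 proteases of the ADAMTS family (Adamts1, Adamts4 and Adamts5) and 2 tissue inhibitors of metalloproteinases (Timp1 and Timp3). They were picked by name as well known members of these families in cartilage, with earlier results of these data known. They are 10 of the 18298 genes with at least 1 read in the series. RNA was sequenced from primary rib chondrocytes, the cartilage cells of E18.5 embryos on the C57BL/6 background, taken at passage 1. The mutant group, Dermo1-Cre;Senp6f/f (Mut, n = 2), and the control group, Senp6f/f (WT, n = 2), share the floxed allele of Senp6, a protease that removes SUMO chains from proteins. Dermo1-Cre takes its expression from Twist2 (also called Dermo1), a gene of early cartilage and bone cells, so other cells that reach the culture keep Senp6. How many embryos went into a culture is not given, and p values measure only the spread between these 4 samples.

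Matrix metalloproteinases (MMPs) are zinc enzymes made as inactive precursors, most of them secreted, and together they can cut the collagens and most other matrix proteins. ADAMTS4 and ADAMTS5 are the main aggrecanases, which cut aggrecan, the proteoglycan that makes cartilage swell with water. TIMPs bind the active site of the enzymes, and TIMP3 is the TIMP that also blocks the aggrecanases. In the growth plate, MMP13 from hypertrophic chondrocytes and MMP9 from osteoclast-lineage and other cells at the cartilage edge clear the matrix before bone is laid down.

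The 14123 genes that entered edgeR's quasi-likelihood test held between 21007449 and 30983806 reads per sample. The root mean square difference in scaled log2 counts over all tested genes was 0.398 between the controls and 0.267 between the mutants. Control replicate 2 was nearer to mutant replicate 1 (0.358) than to the other control, but farther from mutant replicate 2 (0.436). Control replicate 1 lay at 0.506 and 0.550 from mutant replicates 1 and 2. Xist was counted 2, 5, 3 and 11354 times in control replicates 1 and 2 and mutant replicates 1 and 2, so the embryos of the mutant group differed in sex. Senp6 itself was at an RPKM (reads scaled to gene length and to the total reads counted on genes) of 10.8 and 18.02 in the controls and 12.0 and 8.07 in the mutants, which overlap, and counts over whole genes do not show whether the floxed exons were lost. All 10 chondrocyte markers were read in every sample, Col2a1 at 334 to 659 RPKM, although Col1a1, the collagen chain of bone and fibrous tissue, was far higher at 3311 to 7253 RPKM. In such bulk samples, fewer cells of a type and less RNA per cell cannot be told apart.

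In the mutants the TIMPs lay above the controls, and the aggrecanases Adamts4 and Adamts5 below them. Timp1 and Timp3 were 1.68 and 1.75 times as high in the mutants as in the controls, by the ratio of the mean RPKM. The means of Adamts4, Mmp13 and Adamts5 were 1.45, 1.39 and 1.22 times as high in the controls as in the mutants. Both mutant samples were above both controls for 3 of the 10 genes (Mmp3, Timp1 and Timp3), where this held for 28.3% of the 14123 genes tested. Both mutants were below both controls for 3 others (Mmp13, Adamts4 and Adamts5), against 19.2% of the genes tested. For a set of 10 genes, both counts were near the background. For Mmp2, Mmp9, Mmp14 and Adamts1 the groups overlapped. None of the 10 had an adjusted p under 0.05 in edgeR's quasi-likelihood test with Benjamini-Hochberg adjustment over all genes, and 0% of the genes tested had one. At an unadjusted p under 0.05 the same test picked out 4 of the 10 (Timp1, Timp3, Adamts4 and Adamts5), where 15.6% of the genes tested passed. With DESeq2, 2 of the 10 were called higher in the mutants (Timp1 and Timp3) and 0 lower, against 3.07% of the genes tested called higher and 1.86% called lower, and limma on log2 RPKM called 0. The median log2 fold change of the 10 genes was -0.13, and that of all genes tested was 0.01.

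**Figure D1:**
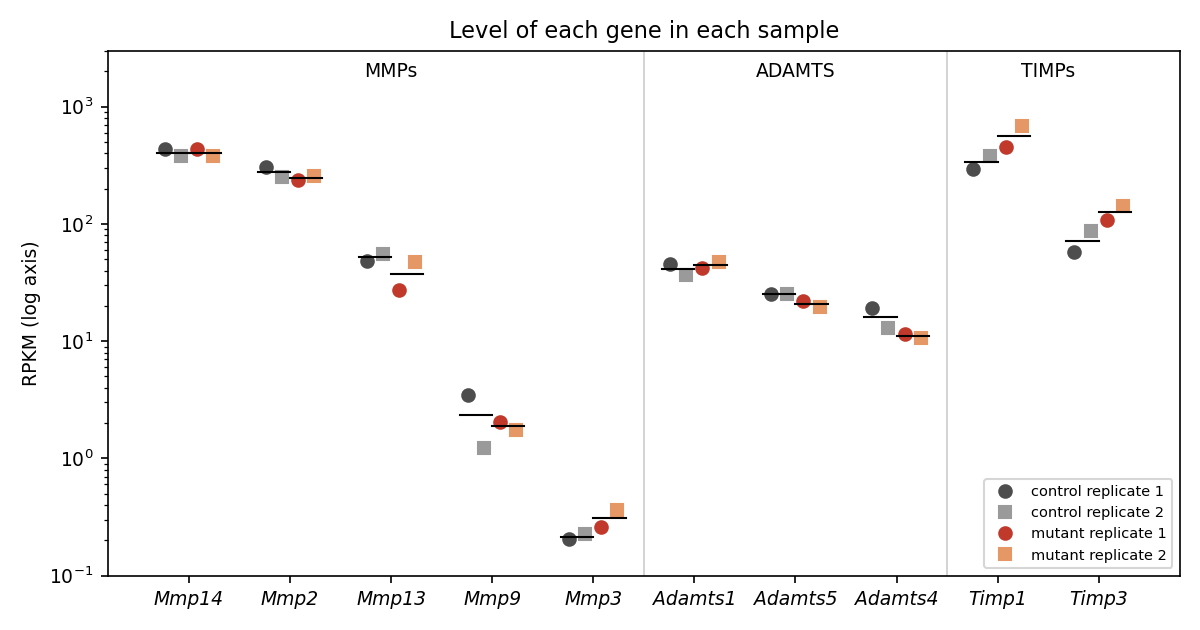
The RPKM of each gene in each of the 4 samples on a log axis, with a bar at the mean of each group of 2 samples. Mmp14, Timp1 and Mmp2 are at the top, Mmp3 is at the bottom, and both mutants stand above both controls for Timp1, Timp3 and Mmp3.

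Levels per gene length spread over more than 3 orders of magnitude in the controls. Mmp14 (405 ± 38.6 RPKM, SD, n = 2), Timp1 (338 ± 60.0) and Mmp2 (279 ± 37.7) were the most abundant. Timp3 (71.7 ± 20.5), Mmp13 (51.8 ± 4.85), Adamts1 (41.5 ± 6.33), Adamts5 (25.4 ± 0.145) and Adamts4 (16.1 ± 4.59) followed. Mmp9 (2.36 ± 1.59) was low and Mmp3 (0.216 ± 0.0153) was barely read. Neighbours in this order that did not differ in every sample were Mmp14 and Timp1, Timp1 and Mmp2, and Mmp13 and Adamts1. In the mutants Timp1 (567 ± 167 RPKM) passed Mmp14 (405 ± 40.3) in mean, and each mutant had more Timp1 than Mmp14. The membrane-bound MMP14 and the gelatinase MMP2, which MMP14 activates with the help of TIMP2, thus made up nearly all of the summed RPKM of the 5 MMPs, between 91.7% and 95.8% in each sample.

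Mmp14 (chr14:54431612-54445364 in GRCm38, plus strand) was at 432 and 378 RPKM in control replicates 1 and 2, and at 434 and 377 RPKM in mutant replicates 1 and 2. The pairs are nearly the same, and the log2 fold change was -0.04 (SE 0.155), with a 95% interval from -0.41 to 0.33. Mmp2 (chr8:92827291-92853420, plus strand) was at 306 and 253 RPKM in the controls and at 236 and 258 in the mutants. Control replicate 1 was the highest and the other 3 samples lay together, with a log2 fold change of -0.22 (SE 0.154, interval -0.59 to 0.14). The adjusted p of edgeR was 0.925 for Mmp14 and 0.552 for Mmp2. These intervals exclude a doubling or a halving of either gene, given the spread that edgeR assigns to the samples. Without control replicate 2, Mmp2 was at -0.41 on the log2 scale, and without control replicate 1 it was at -0.05.

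Mmp13, the collagenase that cuts type II collagen and marks late hypertrophic chondrocytes, was at 48.4 and 55.3 RPKM in the controls and at 27.4 and 47.5 RPKM in the mutants. Both mutants were below both controls, but mutant replicate 2 was only just below control replicate 1. Its log2 fold change was -0.52 (SE 0.242, interval -1.10 to 0.06), with an adjusted p of 0.374 in edgeR. It was -0.94 without mutant replicate 2 and -0.19 without mutant replicate 1, so the size rested on the latter. The osteoblast markers, another cell type that makes MMP13, were lower in both mutants for 4 of the 4 that could be tested, where 19.2% of all genes tested were. Ibsp, Alpl, Sp7 and Phex had log2 fold changes of -2.48, -2.06, -1.11 and -0.85 (SE 0.834, 0.411, 0.362 and 0.523). Ibsp differed widely between the controls, at 70.7 and 16.7 RPKM, against 4.62 and 11.8 RPKM in the mutants. Phex had only 25 and 16 reads in the controls and 13 and 17 in the mutants. All the osteoblast markers summed to 172 and 69.9 RPKM in the controls and 19.2 and 40.6 RPKM in the mutants. Of the 6 listed, Bglap and Dmp1 could not be tested, with at most 14 reads in any sample and the most in mutant replicate 2. Their part in the level of Mmp13 was not tested.

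Mmp3, stromelysin-1, which also activates other MMP precursors, was counted 8 and 11 times in the controls and 15 and 19 times in the mutants. This is 0.205 and 0.226 RPKM against 0.260 and 0.362 RPKM, with both mutants above both controls. On the log2 scale the fold change was 0.47 (SE 0.482), and its interval from -0.68 to 1.63 covers a fall as well as a doubling, so no difference was detectable at this depth. Reads covered between 34.5% and 67.7% of the gene length, whereas Mmp13 was covered over 94.95% to 98.73% of its length.

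Mmp3 and Mmp13 belong to 1 cluster of 10 MMP genes on chromosome 9 (427 kb in GRCm38, GENCODE annotation). Mmp13 lies at chr9:7272514-7283331 and Mmp3 at chr9:7445822-7455975, both on the plus strand and 162 kb apart. Only 6 of the 10 cluster genes had any read in the series, and Mmp13 alone reached 1 RPKM, while the other 5 were at most at 0.597 RPKM. The highest of these was Mmp10, chosen here after its values were seen, with 2, 2, 9 and 29 reads in control replicates 1 and 2 and mutant replicates 1 and 2. It was too low for the filter and was not tested. The 250 bases before the RefSeq start of both genes (GRCm38.p6, plus strand) are printed because both are members of this cluster, differ widely in level and carry the same letters close to the start. Capitals mark matches to motifs of AP-1 (TGANTCA), the TATA box (TATAAA), RUNX factors (AACCACA), ETS factors (AGGAAG) and the GC box (GGGCGG), searched on both strands. No matches overlap one another.
Mmp13, chr9:7272264-7272513: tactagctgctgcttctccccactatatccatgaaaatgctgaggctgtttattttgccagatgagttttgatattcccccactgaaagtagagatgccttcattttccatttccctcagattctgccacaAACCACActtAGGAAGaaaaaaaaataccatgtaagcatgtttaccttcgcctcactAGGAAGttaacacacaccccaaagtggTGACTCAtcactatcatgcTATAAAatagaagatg
Mmp3, chr9:7445572-7445821: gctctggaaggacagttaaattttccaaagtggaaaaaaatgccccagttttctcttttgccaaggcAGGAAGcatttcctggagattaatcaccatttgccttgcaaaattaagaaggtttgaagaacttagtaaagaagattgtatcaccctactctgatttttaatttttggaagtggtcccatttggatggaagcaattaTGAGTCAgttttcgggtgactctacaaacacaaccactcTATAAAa
The AP-1 letters begin 35 bases before the start of Mmp13 and 46 bases before that of Mmp3. They were found in the same window of 6.75% of 32851 mouse promoters, and the TATA letters in 12.4%. Only Mmp13 holds the RUNX letters, 119 bases before its start, which 4.4% of all promoters hold. Mmp14, the other of these MMP genes with a RefSeq window, has neither the AP-1 nor the TATA letters but holds the GC box. A match is a string of letters and not a measured binding site.

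Mmp9 (chr2:164940780-164955850, plus strand), which encodes gelatinase B, was at 3.48 and 1.24 RPKM in the controls and at 2.03 and 1.76 RPKM in the mutants. The mutants lay between the controls, and the log2 fold change was -0.36 (SE 0.470, interval -1.49 to 0.76). Its sign depended on the control that was kept, with 0.60 when control replicate 1 was left out and -0.98 when control replicate 2 was left out. Acp5, the tartrate-resistant acid phosphatase of osteoclasts, ran 6.95, 2.79, 4.48 and 3.93 RPKM in the same order of samples. The ratio of Mmp9 to Acp5 was thus 0.501, 0.443, 0.452 and 0.447, a steadiness noticed after the values were seen. Of 6 osteoclast markers 4 were read, with Calcr and Dcstamp absent. Oscar had 5 and 7 reads in the controls and 17 and 20 in the mutants, and Ocstamp had at most 6. The markers summed to 84.3 and 64.0 RPKM in the controls and to 43.1 and 39.2 RPKM in the mutants. This sum was mostly Ctsk, a gene that fibroblasts also express. Ctsk was at 77.3 and 61.0 RPKM in the controls and at 38.3 and 34.8 RPKM in the mutants. Its log2 fold change was -0.96 (SE 0.171, adjusted p 0.0885 in edgeR and 0.000175 in DESeq2). The part of osteoclast-lineage cells in the level of Mmp9 was not tested.

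Among the aggrecanases, Adamts4 (chr1:171250421-171260637, plus strand) was at 19.4 and 12.9 RPKM in the controls and at 11.6 and 10.6 RPKM in the mutants. Both mutants were below both controls, and control replicate 1 stood well above the other 3 samples. The log2 fold change was -0.59 (SE 0.223, interval -1.12 to -0.05), with an adjusted p of 0.276 in edgeR. It shrank to -0.23 when control replicate 1 was left out. Leaving out control replicate 2 gave -0.90. Adamts5 was at 25.3 and 25.5 RPKM in the controls and at 21.9 and 19.5 RPKM in the mutants. Its controls differed little (SD 0.145), and its log2 fold change of -0.33 (SE 0.131, interval -0.65 to -0.02, adjusted p 0.290 in edgeR) stayed between -0.44 and -0.23 when any 1 sample was left out. Adamts1, a versicanase with weaker action on aggrecan, was at 46.0 and 37.0 RPKM in the controls and at 41.8 and 47.4 RPKM in the mutants. The groups of Adamts1 overlapped, and its log2 fold change was 0.06 (SE 0.161, interval -0.33 to 0.44). Adamts1 (chr16:85793827-85803113) and Adamts5 (chr16:85856173-85901828) are neighbours on the minus strand, 53.1 kb apart in GRCm38, and in these samples the former overlapped between the groups while the latter did not.

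Timp1, the soluble inhibitor of most secreted MMPs, was at 296 and 380 RPKM in the controls and at 449 and 685 RPKM in the mutants. Both mutants were above both controls, and mutant replicate 2 was the highest by far. Its log2 fold change was 0.70 (SE 0.216, interval 0.19 to 1.22). The adjusted p was 0.196 in edgeR, 0.0394 in DESeq2 and 0.323 in limma on log2(RPKM + 0.1). Timp1 is on the X chromosome, and mutant replicate 2 was the sample with Xist. The log2 fold change was 0.39 over the 3 samples without Xist, and 0.96 when mutant replicate 1 was left out instead. The part of embryo sex in the level of Timp1 was not tested.

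Timp3, which binds to the matrix and inhibits aggrecanases as well as MMPs, was at 57.2 and 86.2 RPKM in the controls and at 109 and 142 RPKM in the mutants. The groups did not overlap, and the 4 samples stood in the same order as for Timp1, with control replicate 1 lowest and mutant replicate 2 highest. The log2 fold change was 0.77 (SE 0.214, interval 0.25 to 1.28). The adjusted p was 0.167 in edgeR, 0.0172 in DESeq2 and 0.272 in limma on log2(RPKM + 0.1). The change was 0.52 on the log2 scale when control replicate 1 was left out and 1.03 when control replicate 2 was. Timp3 is on chromosome 10, and mutant replicate 2, its highest sample, was the sample with Xist. Without that sample the log2 fold change was 0.58. The part of embryo sex in the level of Timp3 was not tested. The ratio of Timp1 to Timp3 stayed between 4.14 and 5.17 in the 4 samples, which overlap between the groups.

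The TIMP promoters are printed because both genes were higher in the mutants. Their upstream letters (GRCm38.p6, plus strand, motifs in capitals as above) end just before the start of Timp1 and where the annotated transcript of Timp3 begins.
Timp1, chrX:20869916-20870165: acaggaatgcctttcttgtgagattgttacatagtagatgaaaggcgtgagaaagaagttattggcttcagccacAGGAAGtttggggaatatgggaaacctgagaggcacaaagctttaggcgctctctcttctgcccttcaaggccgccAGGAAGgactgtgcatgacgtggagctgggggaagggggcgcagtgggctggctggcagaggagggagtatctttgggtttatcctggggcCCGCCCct
Timp3, chr10:86300162-86300371: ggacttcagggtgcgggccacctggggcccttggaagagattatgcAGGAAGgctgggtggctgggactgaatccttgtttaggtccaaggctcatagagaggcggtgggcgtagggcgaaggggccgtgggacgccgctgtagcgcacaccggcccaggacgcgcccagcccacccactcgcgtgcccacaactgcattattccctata
Neither holds the AP-1, TATA or RUNX letters of Mmp13. Timp1 holds the ETS letters at 2 places and Timp3 at 1, letters found in 29.5% of all promoters. Both hold 1 match to the GC box (32.7% of promoters), that of Timp1 beginning 8 bases before the start and read on the minus strand. The match of Timp3 lies in the last bases of the RefSeq window, beyond the stretch printed.

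Both TIMP genes lie inside synapsin genes that are read from the opposite strand. Timp1 (chrX:20870166-20874735) is inside Syn1, and none of its 888 exonic bases is shared with an exon of Syn1. Syn1 was counted 71 and 67 times in the controls and 316 and 449 times in the mutants, a log2 fold change of 2.09 (SE 0.300, edgeR adjusted p 0.0789, DESeq2 adjusted p 1.65e-06). Timp3 (chr10:86300372-86349506) is inside Syn3, and 1733 of its 8144 exonic bases are shared with exons of Syn3. Syn3 was counted 14 and 37 times in the controls and 23 and 25 times in the mutants, which overlap. Whether counting used the strand is not stated, so reads of each pair cannot be told apart where they overlap. The counts of Syn1 and Syn3 were small beside the 5621 to 17521 reads of Timp1 and the 5624 to 18758 reads of Timp3.

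**Figure D2:**
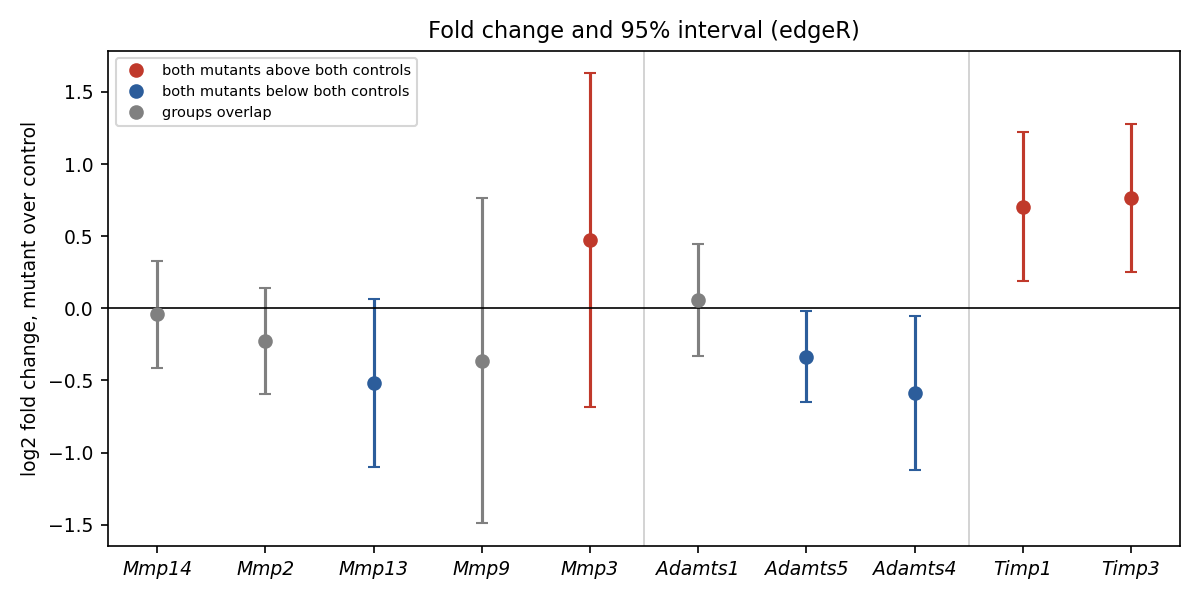
The log2 fold change (mutant over control) of each gene from edgeR, with bars for the 95% interval and colours for whether both mutants were above, both below or overlapping with both controls. The intervals of Timp1 and Timp3 lie above 0, those of Adamts4 and Adamts5 lie below 0, and the other 6 cross it.

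The sums of the families set these values side by side. The 5 MMPs summed to 790 and 687 RPKM in the controls and to 699 and 684 RPKM in the mutants, which overlap. The 3 ADAMTS proteases summed to 90.6 and 75.4 RPKM in the controls and 75.4 and 77.5 RPKM in the mutants, which overlap as well. Timp1 and Timp3 together summed to 353 and 467 RPKM in the controls and to 558 and 827 RPKM in the mutants. The ratio of the 5 MMPs to both TIMPs was 2.24 and 1.47 in the controls and 1.25 and 0.827 in the mutants. The ratio of the 3 ADAMTS proteases to Timp3, whose protein blocks the aggrecanases, was 1.58 and 0.874 in the controls and 0.694 and 0.546 in the mutants. In both ratios the mutants were below the controls, and the distance between the controls was larger than the step between the nearest samples of the groups. The sums of the enzymes overlapped between the groups, and the sums of the inhibitors did not. An exact test of 2 against 2 samples cannot give a p below 0.333. The ratios are therefore given as values, no other test of them was run, and RNA levels do not give enzyme activity.

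Timp2, the inhibitor that also helps MMP14 to activate MMP2, was the most abundant TIMP in the controls, with 446 and 408 RPKM there and 481 and 513 RPKM in the mutants. Its log2 fold change was 0.18 (SE 0.134, edgeR adjusted p 0.598). With Timp2 added to the inhibitors, the ratio of MMPs to TIMPs was 0.990 and 0.786 in the controls and 0.673 and 0.510 in the mutants. The ratio of Mmp14 to Timp2 was 0.970 and 0.926 against 0.902 and 0.734, and that of Mmp13 to Timp1 was 0.164 and 0.145 against 0.0610 and 0.0692. The mutants were below the controls in each. For Mmp13 to Timp1 this follows from the values of Mmp13 and Timp1 themselves, which each separate the groups. The ratios share TIMP values and so restate them rather than add to them.

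**Figure D3:**
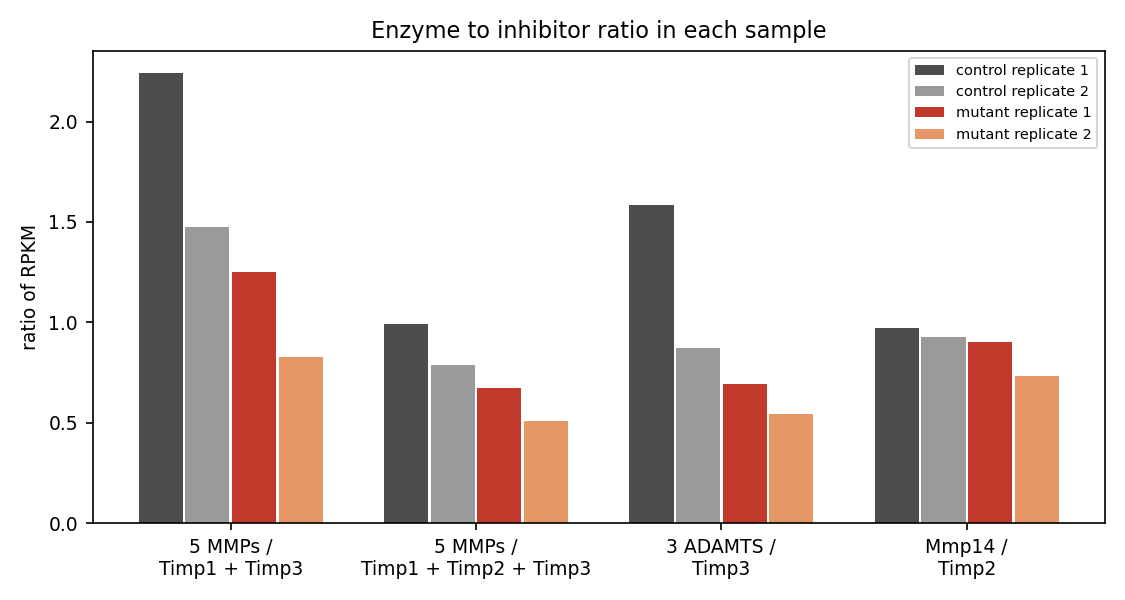
The ratio of summed RPKM of the enzymes to that of the inhibitors, 1 bar for each of the 4 samples, on an axis from 0. In all 4 ratios both mutants stand below both controls, and control replicate 1 is the highest.

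Around these 10 genes, 100 further genes were listed by role, of which 94 had a read and 81 could be tested. Both mutants were above both controls for 30 of the 81 and below for 25, where 28.3% and 19.2% of all genes tested were. None had an adjusted p under 0.05 in edgeR, where the smallest was 0.0789, but 28 had an unadjusted p under 0.05 (13 higher and 15 lower), against 15.6% of all genes tested. DESeq2 called 7 higher and 9 lower, against 3.07% and 1.86% of all genes tested, and limma called 0. The medians of the lists ran from a log2 fold change of -0.69 for the matrix substrates to 0.45 for the cytokines and receptors that induce MMPs, against 0.01 for all genes tested.

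Of 18 other MMPs 14 had a read and 9 could be tested, with 3 above, 3 below and 3 overlapping. In all genes tested 28.3% were above and 19.2% below, so these counts were near the background. Mmp23, a membrane-anchored MMP, was the most abundant at 104 and 73.0 RPKM in the controls and 60.0 and 63.5 RPKM in the mutants (log2 fold change -0.57, SE 0.197). Mmp16, a second membrane-type MMP, was at 3.41 and 4.197 RPKM in the controls and 5.39 and 6.00 RPKM in the mutants (0.54, SE 0.158). Mmp11 and Mmp19 were at 13.3 to 22.8 RPKM, with log2 fold changes of 0.09 and 0.28. Mmp12, the macrophage elastase, had 15 and 10 reads in the controls and 4 and 8 in the mutants, and Mmp25, the leukocyte MMP, had 2 and 10 against 26 and 23. Of 16 other ADAMTS genes 12 could be tested, with 1 above and 3 below (28.3% and 19.2% in all genes tested). The procollagen N-proteinase Adamts2 was the most abundant, at 43.8 to 62.6 RPKM with the groups overlapping. Adamts10 was at 21.1 and 15.0 RPKM in the controls and 13.5 and 14.0 RPKM in the mutants (-0.44, SE 0.195), while Adamts12 and Adamts14 overlapped at 5.27 to 15.4 RPKM (-0.45 and 0.10). Adamts17 was at 1.17 RPKM in control replicate 1 and at 0.192 to 0.253 RPKM in the other 3 samples, so its log2 fold change of -1.76 (SE 0.692) rested on that control. Reck, a membrane-bound inhibitor of several MMPs, was at 10.7 to 15.2 RPKM with the groups overlapping, and A2m and Timp4 were under 1 RPKM.

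Among 12 genes that activate MMPs or take up matrix, 5 were above and 3 below, where 28.3% and 19.2% of all genes tested were. Plau, the urokinase that generates plasmin and so starts MMP activation, was at 20.5 and 36.3 RPKM in the controls and 57.5 and 81.5 RPKM in the mutants (log2 fold change 1.25, SE 0.276, adjusted p 0.115 in edgeR and 0.000284 in DESeq2). Cd44, the hyaluronan receptor that can hold MMP9 at the cell surface, was at 27.5 and 60.9 against 88.3 and 109 RPKM (1.12, SE 0.332). Plaur, named outside the naming rule because DESeq2 called it, was at 25.2 and 34.9 against 53.7 and 61.2 RPKM. Its log2 fold change was 0.89 (SE 0.173, adjusted p 0.0961 in edgeR and 0.00101 in DESeq2). In this list DESeq2 called 3 higher and 2 lower, against 3.07% and 1.86% of all genes tested. Pcsk5, a proprotein convertase, was at 5.75 and 2.80 against 0.744 and 0.727 RPKM (-2.59, SE 0.364, adjusted p 0.0789 in edgeR and 3.32e-10 in DESeq2). Furin, the convertase that activates MMP14, overlapped between the groups at 70.2 to 80.4 RPKM, as did Bsg, an inducer of MMPs on the cell surface, at 179 to 221 RPKM. Lrp1, the receptor that clears MMPs, ADAMTS proteases and TIMPs from the medium, was at 114 to 122 RPKM (-0.10, SE 0.127). Of 12 ADAM proteases 11 could be tested, with 4 above and 3 below, beside 28.3% and 19.2% of all genes tested. Adam33 was at 7.74 and 3.15 RPKM in the controls and 1.27 and 2.23 RPKM in the mutants (-1.69, SE 0.472, adjusted p 0.167 in edgeR and 0.00444 in DESeq2). Adam23, named outside the naming rule as the other ADAM gene that DESeq2 called, was at 49.4 and 33.9 against 23.6 and 23.7 RPKM. Its log2 fold change was -0.86 (SE 0.204, adjusted p 0.125 in edgeR and 0.00325 in DESeq2). The 4 most abundant, Adam9, Adam10, Adam15 and Adam19, had log2 fold changes between -0.03 and 0.23.

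Of 12 cytokines and receptors that induce MMP genes 8 could be tested, with 5 above and 2 below (28.3% and 19.2% in all genes tested). The other 4, named outside the naming rule, were hardly read. Il1b had no read, and Il1a, Tnf and Osm had at most 2 reads in any sample. Il6 was counted 7 and 17 times in the controls and 66 and 121 times in the mutants (log2 fold change 2.62, SE 0.512, adjusted p 0.0965 in edgeR and 0.00369 in DESeq2). Lif, of the same cytokine family, was counted 30 and 66 against 219 and 299 times (2.10, SE 0.347, adjusted p 0.0852 in edgeR and 4.74e-05 in DESeq2). Il1r1, the receptor for interleukin-1, which induces MMPs and aggrecanases in cartilage, was at 64.6 and 65.6 against 42.0 and 34.98 RPKM (-0.80, SE 0.145, adjusted p 0.0901 in edgeR and 0.000235 in DESeq2). The receptors Osmr, Il6st and Tnfrsf1a were abundant, with log2 fold changes of 0.40, -0.15 and -0.17. Il6ra, a less abundant receptor, was at 1.41 and 1.88 RPKM in the controls and 3.34 and 3.41 RPKM in the mutants. Its log2 fold change was 0.996 (SE 0.218, adjusted p 0.114 in edgeR and 0.0224 in DESeq2). It is named outside the naming rule because DESeq2 called it. In this list DESeq2 called 3 higher and 1 lower, against 3.07% and 1.86% of all genes tested. Of 14 transcription factors of MMP genes 8 were above and 1 below (28.3% and 19.2% in all genes tested), with a median log2 fold change of 0.13. The 4 most abundant, Fosl2, Jun, Junb and Jund, are AP-1 subunits, and their log2 fold changes were 0.28, 0.12, 0.18 and 0.04. Fos, a less abundant AP-1 subunit, was at 2.82 and 2.51 RPKM in the controls and 4.75 and 5.90 RPKM in the mutants. Its log2 fold change was 0.95 (SE 0.220, adjusted p 0.122 in edgeR and 0.0360 in DESeq2). Fos is named outside the naming rule, as the only gene of this list that DESeq2 called. The other AP-1 subunits listed, Fosl1 and Fosb, were at 0.32 and 0.05.

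Most substrates of these enzymes lay lower in the mutants. Both mutants were below both controls for 10 of 12 and above for the other 2, Bgn (biglycan, log2 fold change 0.16) and Fn1 (fibronectin, 0.17, named after its values were seen), where 19.2% of all genes tested were below and 28.3% above. Of these 12 genes 5 (Acan, Col2a1, Comp, Matn3 and Hapln1) are also among the 10 chondrocyte markers and are counted in both lists. Comp, a cartilage matrix protein cut by several of these enzymes, was at 73.6 and 38.6 RPKM in the controls and 11.6 and 24.9 RPKM in the mutants (-1.68, SE 0.426). Dcn, decorin, was at 170 and 73.6 against 54.0 and 40.9 RPKM (-1.41, SE 0.392). Hapln1, the link protein that ties aggrecan to hyaluronan, was at 6.93 and 8.81 against 3.24 and 4.38 RPKM (-1.09, SE 0.191, adjusted p 0.0885 in edgeR and 0.000164 in DESeq2), and Matn3 was at 5.76 and 5.24 against 1.61 and 2.42 RPKM (-1.50, SE 0.242). The fibrillar collagen genes Col1a1, Col1a2 and Col3a1 had log2 fold changes of -0.63, -0.61 and -0.83. Acan, which encodes aggrecan and is named here as the target of the aggrecanases outside the naming rule, was at 16.8 and 28.2 RPKM in the controls and 16.5 and 15.1 RPKM in the mutants (-0.54, SE 0.229). Its lower control was barely above the higher mutant.

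**Figure D4:**
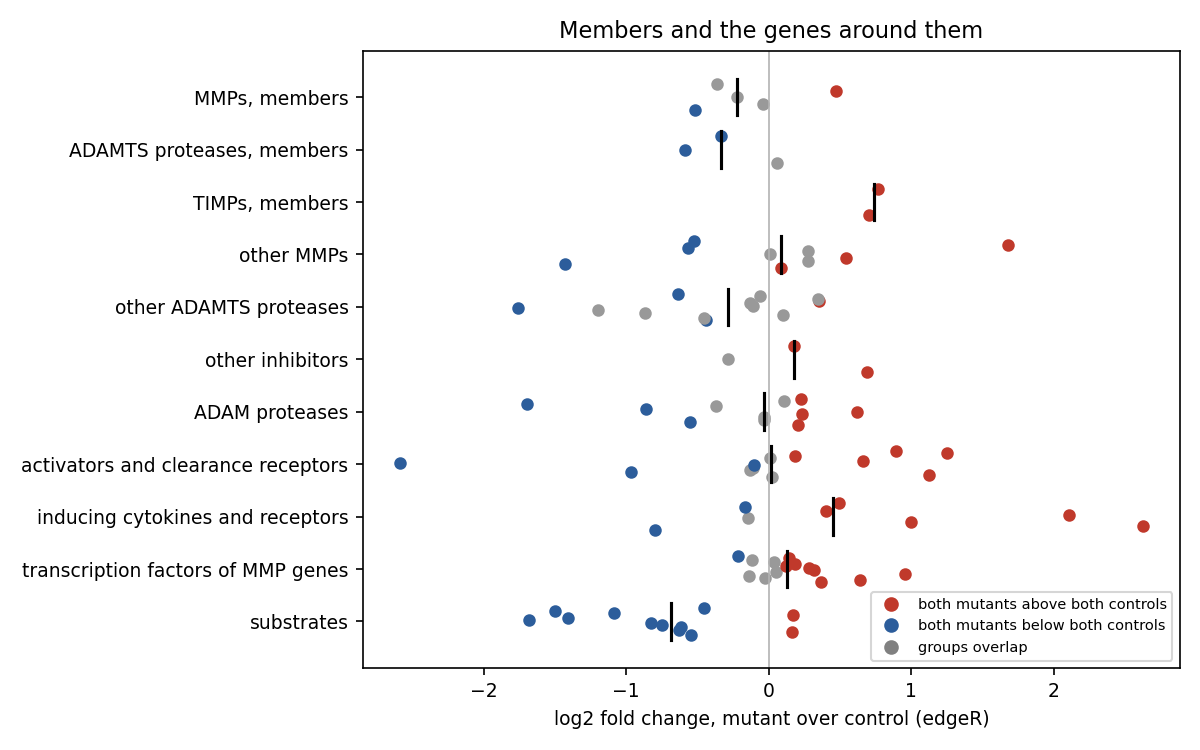
The log2 fold change (mutant over control, edgeR) of every tested gene of each list, 1 point a gene, with a bar at the median of the list and colours for whether the groups overlapped. The 2 TIMPs lie to the right of 0 and 10 of the 12 substrates to the left, while the 5 MMPs and 3 ADAMTS proteases lie between -0.59 and 0.47.

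Markers of other cell types also differed between the groups, and their part in the values above was not tested. All 10 chondrocyte markers were lower in both mutants, from sums of 952 and 961 RPKM in the controls to 501 and 624 RPKM in the mutants, where 19.2% of all genes tested were lower in this way. DESeq2 called 8 of the 10, against 1.86% of all genes tested called lower. Sox9 and Col11a1 had log2 fold changes of -0.73 and -0.56, and Col9a1, Cnmd and Matn1 of -1.85, -1.86 and -3.18. Muscle markers were higher in both mutants for 4 of 6 (28.3% in all genes tested), Acta1, Mylpf, Myh3 and Myog, with log2 fold changes of 1.25 to 1.81. The other 2, named outside the naming rule, overlapped between the groups. Tnnt3 was at 0.43, and Ckm, with at most 45 reads, went the other way at -1.49. DESeq2 called 0 of the 6. All 6 together summed to 74.0 and 20.8 RPKM in the controls against 108 and 123 RPKM in the mutants. Macrophage markers, 4 of 8 lower and 1 higher in both mutants (19.2% and 28.3% in all genes tested), summed to 9.96 to 19.3 RPKM. Lyz2, Itgam, Csf1r, Cd68 and Cd14 had log2 fold changes of -1.43, -1.12, -0.53, -0.38 and 0.54. Endothelial markers summed to at most 1.57 RPKM and neutrophil markers to at most 1.40 RPKM in any sample. The endothelial genes Tek and Kdr had log2 fold changes of -1.74 and 1.32, with at most 88 reads, and Cdh5 and Emcn overlapped between the groups. The red blood cell genes Hba-a1 and Alas2 had at most 5 reads, and the neutrophil genes Mpo and Camp at most 15. The neutrophil genes S100a9 and Ngp, of the cells that store MMP8 and MMP9, had 0 reads in 3 of the 4 samples.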

How the data were processed

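Primary rib chondrocytes of E18.5 embryos (2 Dermo1-Cre;Senp6f/f, 2 Senp6f/f) were used for RNA-seq. Per gene, the authors deposited the read count, not scaled. The authors also deposited the RPKM, which equals the count scaled to gene length and to the sample's total. Coverage, the percent of a gene's length with reads, was deposited too and was only described. The submitters' processing notes name SAMtools and the build mm9, and the aligner, counting tool, annotation and strand setting are not given in the sources used here. A gene that a sample's table leaves out had no read there and was counted as 0.

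Counts were tested with edgeR 4.0.16 in R 4.3.3 (TMM, robust quasi-likelihood test) over the 14123 genes that reached 10 counts in 2 or more samples. Benjamini-Hochberg adjustment ran over all of them. TMM factors were 0.966 to 1.03. Intervals are at 95%. SDs and ratios were computed from RPKM. The alternatives were DESeq2 1.42.0, RLE scaling, other filters, limma 3.58.1 on log2(RPKM + 1) and log2(RPKM + 0.1), a block for the replicate number, and each sample left out in turn. Adding Timp2 to the inhibitors was chosen after seeing the data. The chi-square of the counts over its degrees of freedom was 51.5 between the controls and 24.9 between the mutants, so no library was counted as a repeat. The scripts were tested on simulated data.

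The members and the lists around them were chosen with earlier results of these data known. Genes of the lists were named when they had an adjusted p under 0.05, when the groups did not overlap and the absolute log2 fold change was at least 1, or when they were among the 4 of their list with the highest mean RPKM. Syn1, Syn3 and Senp6 were named whatever their result, and 1 marker gene that the rule picks is not reported here. Positions are from the GENCODE annotation of GRCm38 and were matched by gene name. Upstream sequences are from RefSeq (GRCm38.p6), where 6 of the 10 members had a window, and were cut before any annotated exon. No test of outlying samples was run, as each group holds 2.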

Additional observations from a re-analysis of the deposited data

How the results depend on the processing

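The count of genes past an adjusted p of 0.05 moved most. It was 0 in edgeR, 697 with DESeq2 (434 higher and 263 lower), 286 with no filter on low counts, and between 143 and 2823 when 1 sample was left out, most of all without control replicate 2. For the wider lists it was 0 in edgeR, 16 with DESeq2, 8 with no filter, and between 4 and 32 with 1 sample left out. A group left with 1 sample is assumed there to vary like the other group. The cause of these shifts was not tested. In a fit with a replicate block, 117 genes (84 higher and 33 lower) and 3 of the wider lists passed, and none of the 10 genes did. Across genes, the difference between the controls and that between the mutants had a correlation of -0.04. This single value cannot show whether the numbers pair the samples, and the labels do not state it.

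Among the 10 genes, DESeq2 called Timp1 (log2 fold change 0.69) and Timp3 (0.75), and limma gave Mmp14 the opposite sign, at 0.000812 with a pseudocount of 1 and 0.000813 with 0.1. With 1 sample left out, the log2 fold change ranged from -0.19 to 0.085 for Mmp14, -0.98 to 0.60 for Mmp9, -0.14 to 0.25 for Adamts1, -0.41 to -0.054 for Mmp2, -0.90 to -0.23 for Adamts4, 0.39 to 0.96 for Timp1 and 0.52 to 1.03 for Timp3. Without control replicate 2, the changes of Mmp2, Mmp9, Adamts4 and Timp3 were -0.41, -0.98, -0.90 and 1.03. Without mutant replicate 1, those of Timp1 and Timp3 were 0.96 and 0.93. Mmp3 had no value with at least 10 counts in every sample. The log2 change of the ratio of ADAMTS proteases to Timp3 was -0.93, lay between -1.36 and -0.51 with 1 sample left out, and was -0.43 with Timp2 added to the inhibitors. That of MMPs to both TIMPs was -0.84 and lay between -1.14 and -0.53 with 1 sample left out.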
